A study of Mus musculus with 8 samples.

Results

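The 54 genes described here copy the genome or divide the cell. They were chosen by name, as the rows of the 4 RNA tables that carry those gene IDs, out of 24538 gene IDs in all. Of these, 30 act in G1/S and DNA replication and 24 in G2/M and mitosis, and all 54 passed the filter that left 13228 genes for testing (a mean of at least 1 TPM, the length-scaled share of a transcript in its library). The question was whether the sets active in these phases moved together in early T-lineage progenitors after an induced deletion aimed at Tcf7 and Lef1. These genes encode the transcription factors TCF1 and LEF1. Loss of the proteins was not measured here.

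The cells came from mouse bone marrow LSK progenitors, the stem and multipotent fraction, that carried a tamoxifen-inducible Cre (CreER+). In the KO group the mice also carried floxed Tcf7 and floxed Lef1, and in the WT group both genes were wild type, so that CreER and the drug were shared by the groups. All cultures stood on OP9-DL1, a stromal line that displays a Notch ligand and steers progenitors to the T lineage, and received 4-OH tamoxifen on days 3 to 5. On day 7 the c-Kit-positive DN1 cells, gated as negative for lineage markers, CD4, CD8 and CD25 and high for CD44, were sorted for RNA-seq and ATAC-seq, with 2 KO and 2 WT libraries for each assay. The sources used here do not name the promoter that drives CreER, and nothing says that replicates came from separate animals or cultures. P-values therefore measure the spread between these libraries, which may be technical.

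A dividing cell expresses these genes in waves. Before S phase, E2F factors bound to a DP partner switch on the genes that license origins, build the replication fork and supply nucleotides. Later, B-MYB and FOXM1 act with the MuvB complex on genes whose promoters often hold a CHR element beside CCAAT boxes, and these genes drive entry into mitosis, spindle assembly and chromosome separation. Thymocyte progenitors at the DN stages are known to proliferate before they rearrange their receptor genes.

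The deletion was visible in Tcf7, at 13.2 and 12.4 TPM in the KO libraries against 518 and 510 TPM in the WT libraries, whereas Lef1 stood at 1.46 and 1.57 TPM in KO and 1.66 and 1.10 TPM in WT, too low in both groups to serve as a check. Markers of other cell types differed between the groups as well. Of 16 stromal markers, 14 were tested and 11 of these rose, with a summed level of 2517 and 2095 TPM in KO against 1042 and 1061 TPM in WT, while the stromal markers Lum and Dcn were at or near 0 TPM in all 4 libraries. Of 10 mast cell markers, 9 rose and Cpa3 fell (summed level 561 and 574 TPM in KO, 251 and 244 TPM in WT, where Cma1 and Fcer1a were at 0 TPM in replicate 1), and all 5 neutrophil granule markers rose (3083 and 2999.8 TPM in KO, 1375 and 1373 TPM in WT). Of 3 genes carried by the sorted cells, Kit fell (157 and 157 TPM in KO, 251 and 238 TPM in WT), Ptprc fell (129 and 142 TPM in KO, 207 and 232 TPM in WT), and Cd44 did not pass. Cd4, Cd8a, Cd8b1 and Ly6g did not exceed 2 TPM in any library, but Il2ra, which encodes the CD25 used as a negative gate, was at 0.658 and 0.393 TPM in KO and 136 and 133 TPM in WT. The part of these differences in the results below was not tested. In bulk RNA a change in the number of cells of a type cannot be told apart from a change in RNA per cell.

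Replication genes rose almost as a block in the KO libraries. Of the 30 G1/S genes, 29 rose, 1 fell (E2f2) and none missed the threshold, a limma adjusted p under 0.05 (Benjamini-Hochberg, over the 13228 tested genes), and 29 had both KO libraries above both WT libraries. Among the 24 G2/M genes, 17 rose, none fell and 7 did not pass, and 20 had both KO libraries above both WT libraries. Across all tested genes the same test called 25.2% higher and 14.7% lower (39.8% in either direction), and 44.4% had both KO libraries above both WT libraries. The median log2 change was 0.61 for the G1/S genes, 0.38 for the G2/M genes and 0.09 for all tested genes. As a ratio of mean TPM, KO over WT, the G1/S genes had a median of 1.55 (0.618 to 2.16) and the G2/M genes a median of 1.31 (0.974 to 1.78). Log2 changes are of TPM + 1 and understate the change of genes with low levels.

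**Figure D1:**
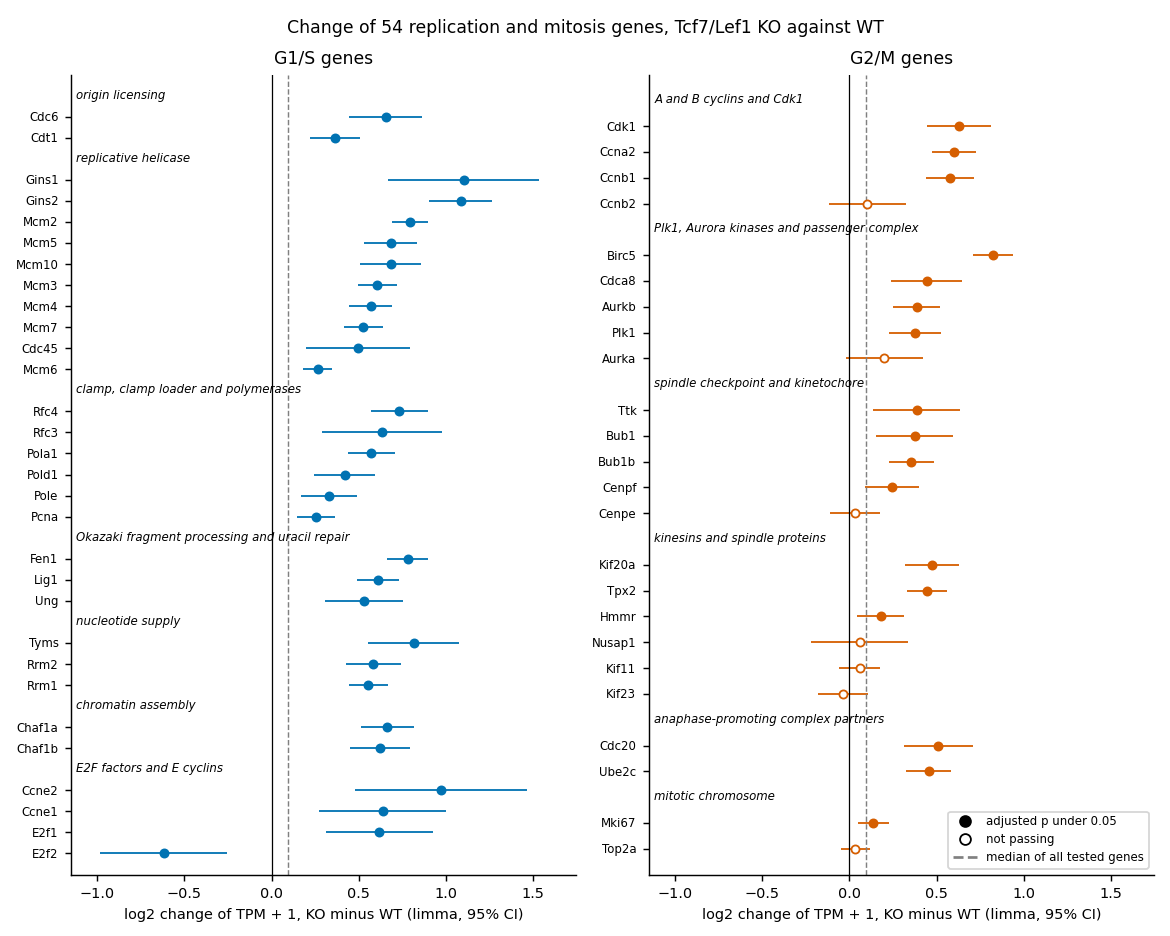
Fitted log2 change of TPM + 1 (KO minus WT, x axis) with its 95% interval from limma for each of the 54 genes, grouped by role; filled points passed the adjusted p of 0.05, open points did not, and the dashed line is the median of all tested genes. All G1/S points but E2f2 lie to the right of the dashed line, and the 7 open points are G2/M genes.

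These counts depend on how the libraries are scaled to each other more for G2/M than for G1/S. TPM sum to the same total in each library, and one non-coding RNA, Rpph1, took 15.2% and 15.8% of that total in KO and 19.4% and 19.2% in WT. Across all tested genes, 36.8% of the calls were lower as deposited, 50.6% after median-ratio scaling, 46.8% after quantile normalization and 45.7% with TPM rescaled without Rpph1. Under these 3 scalings 28, 28 and 29 G1/S genes rose, against 12, 13 and 13 G2/M genes. With each RNA library left out in turn, 22 of the 30 G1/S calls and 11 of the 17 G2/M calls held every time. The 14 other calls are named with their roles.

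A comparison of the phases within each library depends little on how libraries are scaled to each other. The mean log2(TPM + 1) of the 30 G1/S genes was 6.28 in both KO libraries, against 5.73 and 5.66 in the WT libraries. For the 24 G2/M genes this level was 6.53 and 6.52 in KO and 6.19 and 6.20 in WT. The G1/S mean minus the G2/M mean was -0.25 and -0.24 in KO and -0.46 and -0.54 in WT. The gap between these means was therefore smaller in both KO libraries, by 0.26 on the log2 scale on average. The replicate SD of that difference was 0.042. No p is given for the difference, because the genes were chosen with results of these libraries known. Summed TPM also shifted toward G1/S in KO, but G1/S sums already exceeded G2/M sums in WT. By sums the gap was therefore wider in KO. The ratio of G1/S to G2/M transcripts was 1.36 and 1.37 in KO and 1.14 and 1.12 in WT. The sums were 3687 and 3689 TPM (G1/S) and 2704 and 2702 TPM (G2/M) in KO. In WT they were 2541 and 2514 TPM (G1/S) and 2230 and 2249 TPM (G2/M).

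**Figure D2:**
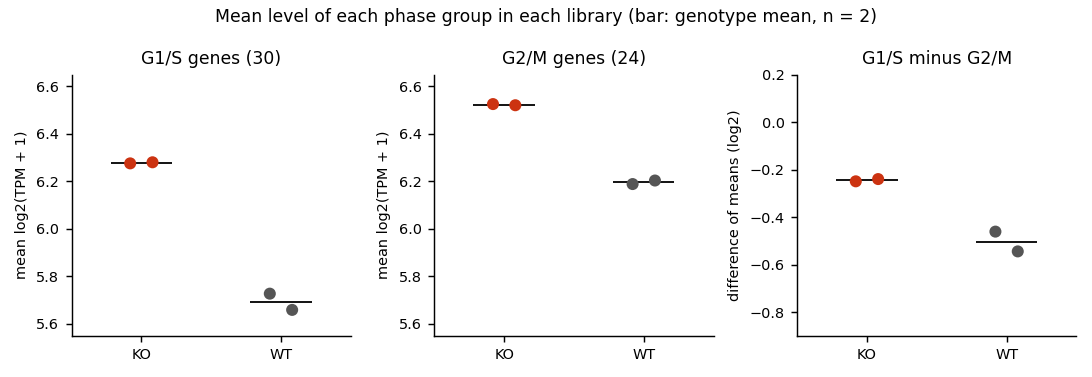
Mean log2(TPM + 1) over the 30 G1/S genes and over the 24 G2/M genes, and the difference of these means, in each RNA library (points; bars are the mean of 2 libraries). The KO points are above the WT points in all 3 panels, and the 2 KO points nearly coincide.

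The promoters of both phases were searched for short E2F, CHR and CCAAT motifs. RefSeq sequence on GRCm38.p6, the assembly known as mm10, was matched for 45 of the 54 genes (25 G1/S and 20 G2/M), and the 250 bases before the start were searched on both strands for E2F words (TTTCCCGC, TTTCGCGC, TTTGCCGC or TTTGGCGC), for the CHR word TTTGAA and for CCAAT, with no base shared between different motifs in these promoters. An E2F word was present in 24% of the G1/S promoters (6 of 25) and 5.0% of the G2/M promoters (1 of 20). The share was 3.48% of the 9841 tested genes with a sequence and 1.94% of all 27025 promoters. The 6 include Cdc6, whose window lies inside its own gene model in the RNA tables, and Mcm7, whose window overlaps another gene. The CHR word was present in 8.0% of G1/S and 35.0% of G2/M promoters, against 10.9% of tested genes and 16.3% of all promoters. CCAAT was present in 56.0% of G1/S and 90.0% of G2/M promoters, against 36.3% and 34.3%. The G2/M promoters with the CHR word were those of Ccnb2, Cdk1, Kif11, Cdc20, Ube2c, Mki67 and Top2a, and each of the 7 also had CCAAT. Among these, Cdk1, Cdc20, Ube2c and Mki67 rose, whereas Ccnb2, Kif11 and Top2a did not pass. The Mki67 call was lost under all 3 scalings. Birc5, with the largest change of the G2/M genes, had no CHR word. Genes without an E2F word included Mcm2, Fen1 and Tyms, which rose, and E2f2, which fell. Such matches are a description of letters and not of bound sites, and the RefSeq start differs from that in the RNA tables for some genes, such as E2f1.

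The first sequences show the E2F word, in capitals, in promoters of G1/S genes that rose: 2 overlapping matches in Mcm5 (chr8:75109259-75109508, plus strand), 1 in Rfc3 (chr5:151651209-151651458, minus strand), 1 in Pola1 (chrX:93632156-93632405, minus strand) and 3 in Mcm6 (chr1:128359706-128359955, minus strand). Each runs 5′ to 3′ in the direction of its gene and ends at the base before the start.
Mcm5: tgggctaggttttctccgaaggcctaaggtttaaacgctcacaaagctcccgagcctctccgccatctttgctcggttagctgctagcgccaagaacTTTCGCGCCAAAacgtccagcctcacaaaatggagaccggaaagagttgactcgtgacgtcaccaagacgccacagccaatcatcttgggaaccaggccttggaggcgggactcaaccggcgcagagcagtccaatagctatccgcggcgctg
Rfc3: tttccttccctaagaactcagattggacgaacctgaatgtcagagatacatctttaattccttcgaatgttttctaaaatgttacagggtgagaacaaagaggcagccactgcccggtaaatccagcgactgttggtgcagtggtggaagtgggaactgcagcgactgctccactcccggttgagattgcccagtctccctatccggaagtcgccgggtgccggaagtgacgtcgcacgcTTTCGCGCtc
Pola1: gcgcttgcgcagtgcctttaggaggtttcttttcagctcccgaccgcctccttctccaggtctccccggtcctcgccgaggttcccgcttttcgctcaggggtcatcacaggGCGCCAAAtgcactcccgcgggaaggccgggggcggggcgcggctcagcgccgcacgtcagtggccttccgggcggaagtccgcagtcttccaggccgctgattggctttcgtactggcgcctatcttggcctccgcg
Mcm6: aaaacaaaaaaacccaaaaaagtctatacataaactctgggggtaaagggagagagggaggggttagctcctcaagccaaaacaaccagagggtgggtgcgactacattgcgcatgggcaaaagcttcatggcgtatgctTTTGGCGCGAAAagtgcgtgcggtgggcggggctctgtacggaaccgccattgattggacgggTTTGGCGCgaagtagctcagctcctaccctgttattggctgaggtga

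In the next set the capitals mark the CHR word in promoters of G2/M genes that rose: Cdk1 (chr10:69352913-69353162, minus strand), Cdc20 (chr4:118437344-118437593, minus strand), Ube2c (chr2:164769679-164769928, plus strand) and Mki67 (chr7:135716380-135716629, minus strand). Cdk1 and Mki67 hold the word at 2 places, and Cdk1 is the only G2/M gene with a sequence that also holds an E2F word. The rise of Mki67 did not hold in the settings given with its role below.
Cdk1: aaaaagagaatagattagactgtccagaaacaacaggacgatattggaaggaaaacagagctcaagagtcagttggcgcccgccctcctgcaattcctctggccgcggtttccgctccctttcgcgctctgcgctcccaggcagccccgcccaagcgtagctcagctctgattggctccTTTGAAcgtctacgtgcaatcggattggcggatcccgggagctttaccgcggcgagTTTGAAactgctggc
Cdc20: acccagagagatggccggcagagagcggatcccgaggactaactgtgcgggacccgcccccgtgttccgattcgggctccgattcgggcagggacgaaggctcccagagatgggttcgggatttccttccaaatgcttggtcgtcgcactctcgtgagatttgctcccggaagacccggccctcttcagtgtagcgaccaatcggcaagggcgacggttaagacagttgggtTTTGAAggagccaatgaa
Ube2c: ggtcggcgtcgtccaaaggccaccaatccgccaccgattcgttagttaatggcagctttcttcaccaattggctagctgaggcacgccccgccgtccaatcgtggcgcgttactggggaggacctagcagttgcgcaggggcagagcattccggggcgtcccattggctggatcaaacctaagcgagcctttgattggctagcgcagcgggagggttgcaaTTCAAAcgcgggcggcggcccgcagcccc
Mki67: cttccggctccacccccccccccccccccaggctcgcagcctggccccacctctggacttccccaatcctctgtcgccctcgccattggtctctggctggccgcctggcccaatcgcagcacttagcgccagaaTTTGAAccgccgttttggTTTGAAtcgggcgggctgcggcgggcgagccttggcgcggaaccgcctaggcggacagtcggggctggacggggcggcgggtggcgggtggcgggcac
In Cdk1, Cdc20 and Ube2c the CHR word nearest to the start ended within 24 bases of it, and in Mki67 it ended 93 bases before it.

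Among the genes that license origins, Cdc6, which helps load the helicase onto DNA, had 28.7 and 29.1 TPM in KO against 18.4 and 17.6 TPM in WT. It rose by a log2 change of 0.66 (SE 0.083, limma adjusted p 0.00322). Cdt1, its partner in helicase loading, had 76.6 and 76.4 TPM in KO and 60.9 and 57.7 TPM in WT, a rise of 0.36 (SE 0.057, limma adjusted p 0.00634). For both genes the KO libraries lay close together and stood above the WT libraries.

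All 10 genes chosen here for the replicative helicase rose, with a median log2 change of 0.65. The largest rise was that of Gins1, a subunit of the GINS complex that joins the helicase to the polymerases, with 49.4 and 50.0 TPM in KO and 27.3 and 18.7 TPM in WT. It had a log2 change of 1.10 (SE 0.173, limma adjusted p 0.00619) and a ratio of means of 2.16, and the WT libraries were further apart than the KO libraries. Gins2, another GINS subunit, had 76.4 and 75.8 TPM in KO and 37.2 and 33.5 TPM in WT and rose by 1.09. The GINS subunits Gins3 and Gins4 were not among the chosen genes and were counted with the other replication genes below. Gins3 did not pass (14.9 and 16.3 TPM in KO, 13.1 and 11.4 TPM in WT, log2 change 0.33, limma adjusted p 0.0834). Gins4 rose by 0.41 (limma adjusted p 0.0222). Mcm2 to Mcm7, the 6 subunits of the MCM ring that unwinds DNA, all rose, with a median of 0.59. Their changes ran from 0.27 in Mcm6, at 426 and 422 TPM in KO and 354 and 351 TPM in WT (SE 0.033, limma adjusted p 0.00302), to 0.79 in Mcm2, at 224 and 230 TPM in KO and 132 and 129 TPM in WT. The subunits thus did not move by equal amounts: the ratio of Mcm2 to Mcm6 TPM was 0.526 and 0.546 in KO and 0.372 and 0.369 in WT. Mcm10, which helps activate the helicase, rose by 0.68. Cdc45, which joins MCM and GINS in the active helicase, rose by 0.50, but its adjusted p was 0.0993 at most with a library left out and the call was lost without WT replicate 2, KO replicate 1 or KO replicate 2.

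Polymerase, clamp and clamp loader genes rose in all 6 cases, with a median of 0.50. Rfc4, a subunit of the clamp loader, had 67.1 and 65.5 TPM in KO and 40.8 and 38.1 TPM in WT, a log2 change of 0.73 (SE 0.066, limma adjusted p 0.00122). Pcna, the sliding clamp itself, had the smallest change of the G1/S genes that rose, with 329 and 348 TPM in KO and 281 and 286 TPM in WT (log2 change 0.26, SE 0.042, limma adjusted p 0.00755). The Pcna groups did not overlap, but its call was lost after quantile normalization, after median-ratio scaling and without WT replicate 1 (adjusted p 0.00614 to 0.164 over all alternatives). The catalytic subunits of the 3 replicative polymerases, Pola1 (0.57), Pold1 (0.42) and Pole (0.33), rose. The call of Pole was lost without WT replicate 1 or KO replicate 2 (adjusted p at most 0.0632), and that of Rfc3, a clamp loader subunit that rose by 0.63, without WT replicate 1, WT replicate 2 or KO replicate 1 (at most 0.103).

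Fen1, the nuclease that trims Okazaki fragments, had 143 and 141 TPM in KO and 81.3 and 82.9 TPM in WT, and rose by 0.78 (SE 0.046, limma adjusted p 0.000471). Ung, which removes uracil from DNA, had 22.9 and 23.1 TPM in KO and 15.8 and 15.3 TPM in WT, and rose by 0.53 (SE 0.089, limma adjusted p 0.00772). Lig1, the ligase that seals Okazaki fragments, rose by 0.61. In all of these the spread within a genotype was small beside the difference between the genotypes.

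For nucleotide supply, Tyms, which makes thymidylate, had 35.5 and 34.2 TPM in KO and 21.0 and 17.8 TPM in WT, a log2 change of 0.82 (SE 0.104, limma adjusted p 0.0033). Rrm1, the large subunit of ribonucleotide reductase, had 190 and 193 TPM in KO and 127 and 132 TPM in WT, a change of 0.55 (SE 0.044, limma adjusted p 0.00092). Rrm2, its small subunit, rose by 0.59, so that both subunits rose by similar amounts. Chaf1a and Chaf1b, subunits of the CAF-1 chaperone that places histones on new DNA, also rose. Chaf1a had 98.6 and 106 TPM in KO and 62.7 and 65.5 TPM in WT (0.66, SE 0.061, limma adjusted p 0.0013). Chaf1b had 45.6 and 44.3 TPM in KO and 28.8 TPM in both WT libraries (0.62, SE 0.068, limma adjusted p 0.00209).

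The upstream regulators of the phase did not all move one way. Ccne2, an E cyclin that activates Cdk2 at the G1/S transition, had 20.4 and 19.8 TPM in KO and 12.1 and 7.90 TPM in WT (log2 change 0.97, SE 0.197, limma adjusted p 0.0142), and the call was lost without KO replicate 1 or KO replicate 2 (adjusted p at most 0.072). Its relative Ccne1 had 12.9 and 11.6 TPM in KO and 6.85 and 8.17 TPM in WT, a rise of 0.64 that was lost whenever any library was left out (adjusted p 0.0511 to 0.101). E2f1, an activating E2F, had 21.1 and 25.5 TPM in KO and 14.3 and 15.3 TPM in WT, and rose by 0.62. That call was lost without WT replicate 1, WT replicate 2 or KO replicate 2 (adjusted p at most 0.0789). E2f2, another activating E2F, went the other way, with 5.63 and 6.67 TPM in KO and 9.91 and 10.003 TPM in WT. It fell by 0.62 on the log2 scale (SE 0.146, limma adjusted p 0.0226). The E2f2 groups did not overlap, but the gene had the lowest level of the 54 and the call was lost without a filter on low values and without WT replicate 1, WT replicate 2 or KO replicate 1 (adjusted p 0.0161 to 0.106 over all alternatives). Within a library the ratio of E2f1 to E2f2 TPM was 3.75 and 3.82 in KO and 1.44 and 1.53 in WT.

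**Figure D3:**
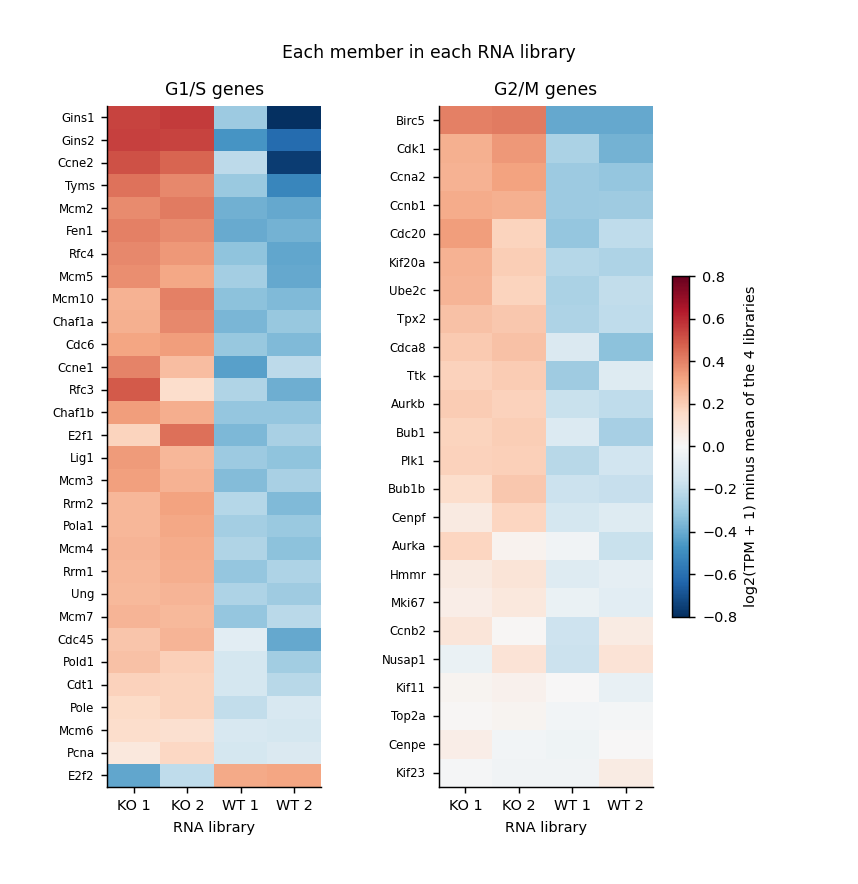
Level of each of the 54 genes in each RNA library, as log2(TPM + 1) minus the gene's mean over the 4 libraries (colour scale); G1/S genes on the left, G2/M genes on the right, each ordered by its change. The KO columns are red and the WT columns blue for every G1/S gene but E2f2, whereas the lowest rows of the G2/M panel, from Ccnb2 to Kif23, are pale or mixed in all 4 columns.

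Among the kinase and cyclins that drive mitotic entry, Cdk1, the mitotic kinase, had 59.1 and 61.6 TPM in KO and 40.4 and 36.9 TPM in WT, and rose by 0.63 (SE 0.073, limma adjusted p 0.00252). Ccna2, the A cyclin of S and G2, rose by 0.60, and without it 16 of 23 G2/M genes rose. The B cyclins, partners of Cdk1, differed from each other. Ccnb1 had 72.1 and 71.6 TPM in KO and 47.7 and 47.8 TPM in WT and rose by 0.58. Ccnb2 had 102 and 96.0 TPM in KO and 85.0 and 99.8 TPM in WT, so that the groups overlapped (log2 change 0.10, 95% interval -0.12 to 0.32, limma adjusted p 0.391). The ratio of Ccnb1 to Ccnb2 TPM was 0.705 and 0.745 in KO and 0.561 and 0.479 in WT.

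Of the 5 genes for Plk1, the Aurora kinases and the passenger complex, 4 rose. Birc5, which encodes survivin, a subunit of the passenger complex, had the largest change of the G2/M genes, with 136 and 137 TPM in KO and 77.0 TPM in both WT libraries (log2 change 0.82, SE 0.046, limma adjusted p 0.000418). Aurkb, the kinase of the same complex, rose by 0.38, and the ratio of Birc5 to Aurkb TPM was 1.82 and 1.86 in KO and 1.35 and 1.37 in WT. Cdca8, which encodes the borealin subunit, rose by 0.44, a call lost without KO replicate 2 (adjusted p 0.052). Plk1, the polo-like kinase of mitotic entry, rose by 0.38. Aurka, the Aurora kinase of the spindle poles, had 53.8 and 48.5 TPM in KO and 46.7 and 42.0 TPM in WT, a difference of 0.20 with a 95% interval from -0.02 to 0.42 that did not pass (limma adjusted p 0.123).

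Of the 5 checkpoint and kinetochore genes, 4 rose and Cenpe did not pass, with a median of 0.36. Ttk, the checkpoint kinase MPS1, had 24.4 and 24.8 TPM in KO and 17.4 and 19.9 TPM in WT, and rose by 0.39 (SE 0.0999, limma adjusted p 0.0306), but the call was lost whenever any library was left out, without a filter and under all 3 scalings (adjusted p 0.0253 to 0.119 over all alternatives). Bub1b, the checkpoint protein BUBR1, rose by 0.36 and held in each of these. Bub1, its relative, rose by 0.38, and its call was lost after median-ratio scaling and without WT replicate 2, KO replicate 1 or KO replicate 2 (at most 0.0933). Cenpf, a kinetochore protein, rose by 0.24, and its call was lost under all 3 scalings and without WT replicate 1, WT replicate 2 or KO replicate 2 (at most 0.142). Cenpe, the kinetochore motor, had 76.0 and 71.99 TPM in KO and 71.3 and 73.2 TPM in WT, overlapping groups (log2 change 0.03, limma adjusted p 0.669), and its sign turned under all 3 scalings.

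The motors and spindle proteins split evenly, with 3 of 6 that rose and a median of 0.12. Kif20a, a kinesin of the central spindle, had 69.3 and 65.3 TPM in KO and 48.5 and 47.8 TPM in WT, and rose by 0.47 (SE 0.062, limma adjusted p 0.00347). Tpx2, which activates Aurora A on the spindle, rose by 0.45. Hmmr, a spindle protein, rose by 0.18 with an adjusted p of 0.0455 that was exceeded whenever a library was left out, on FPKM, without a filter, under all 3 scalings and with replicate number as a block (at most 0.311). Kif23, which works at the central spindle in cytokinesis, had 87.4 and 86.5 TPM in KO and 86.2 and 92.3 TPM in WT (log2 change -0.04, 95% interval -0.18 to 0.11, limma adjusted p 0.637). Kif11, the motor that separates spindle poles, had 123 TPM in both KO libraries and 121 and 116 TPM in WT. Nusap1, a microtubule-binding protein, had 65.9 and 74.0 TPM in KO and 60.7 and 73.9 TPM in WT. Neither Kif11 (0.06) nor Nusap1 (0.06) passed, and their sign turned under each of the 3 scalings.

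Both genes chosen here as partners of the anaphase-promoting complex rose. Its activator Cdc20 had 73.6 and 65.9 TPM in KO and 46.8 and 50.4 TPM in WT (log2 change 0.51, SE 0.080, limma adjusted p 0.00608). Its ubiquitin-conjugating enzyme Ube2c had 209 and 195 TPM in KO and 144 and 150.1 TPM in WT (0.45, SE 0.051, limma adjusted p 0.00234). Mki67 and Top2a, both used as proliferation markers, changed less than these. Mki67, which coats mitotic chromosomes, had 388 and 396 TPM in KO and 359 and 353 TPM in WT, a rise of 0.14 (SE 0.035, limma adjusted p 0.0281) that was lost whenever any library was left out, on FPKM, under all 3 scalings and with the block (at most 0.488). Top2a, the topoisomerase that untangles chromosomes, had 372 and 375 TPM in KO and 364 and 365 TPM in WT, and its difference of 0.03 did not pass (95% interval -0.05 to 0.12, limma adjusted p 0.444) and turned negative under each of the 3 scalings. Within a library the ratio of Cdk1 to Top2a TPM was 0.159 and 0.164 in KO and 0.111 and 0.101 in WT.

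Genes outside the 54 that serve the same processes had medians in the same order. Of 47 other replication genes, 37 rose, none fell and the other 10 missed the threshold, for a median change of 0.49 on the log2 scale. Among the largest rises were those of Hells, a chromatin remodeller (172 and 186 TPM in KO, 96.1 and 97.0 TPM in WT, log2 change 0.88), and of Rpa3, a subunit of the single-strand binding complex RPA (74.6 and 67.7 TPM in KO, 39.6 and 37.3 TPM in WT, 0.87). Of 52 other mitosis genes, 30 rose, the other 22 missed the threshold and none fell, for a median of 0.32. Gtse1, a microtubule-associated protein, had 32.1 and 29.2 TPM in KO and 12.98 and 14.3 TPM in WT and rose by 1.11. Psrc1, a spindle protein, had 24.8 and 33.9 TPM in KO and 13.7 and 15.2 TPM in WT and rose by 0.96, a call lost without WT replicate 1 (adjusted p 0.0614). Spc24, a subunit of the NDC80 kinetochore complex, had 72.1 and 70.7 TPM in KO and 38.6 and 49.0 TPM in WT and rose by 0.70. Sequence was matched for 34 of the other replication genes and 41 of the other mitosis genes. An E2F word was present in 14.7% of these replication promoters and 7.32% of these mitosis promoters, the CHR word in 8.82% and 31.7%, and CCAAT in 55.9% and 63.4%, so that the shares with CCAAT lay closer together than the 56.0% of G1/S and 90.0% of G2/M promoters.

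**Figure D4:**
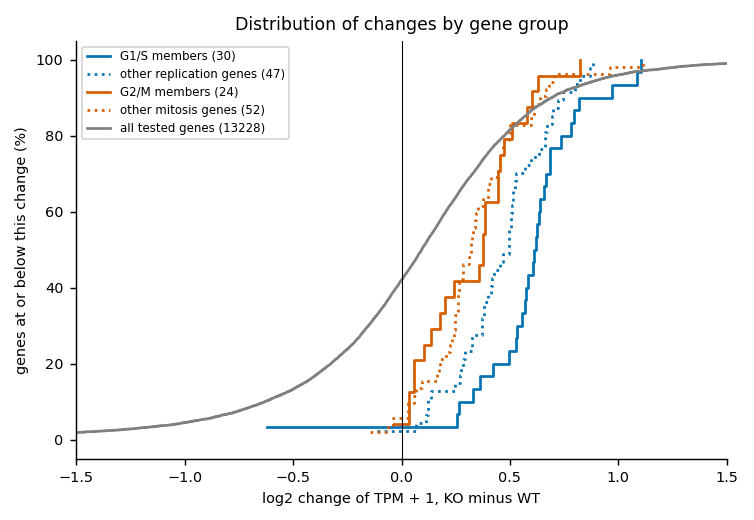
Cumulative percent of genes (y axis) at or below each log2 change of TPM + 1, KO minus WT (x axis), for the 30 G1/S genes, 47 other replication genes, 24 G2/M genes, 52 other mitosis genes and 13228 tested genes. Both replication curves lie to the right of the mitosis curves over most of their range, with medians of 0.61 and 0.49 against 0.38 and 0.32, and all 4 have medians above the 0.09 of all tested genes.

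The factors that control these waves were examined as a list of 17 regulators, of which 10 rose, 1 fell and 6 did not pass. Mybl2, which encodes B-MYB, had 53.99 and 51.4 TPM in KO and 25.5 and 23.8 TPM in WT and rose by 1.07. Among E2F genes, E2f7 (0.93) and E2f8 (0.65), both atypical repressors, E2f3 (0.60), an activator, and E2f4 (0.45) and E2f6 (0.51), which are known as repressors, rose. The DP partners went opposite ways. Tfdp1 had 216 and 221 TPM in KO and 127 and 128 TPM in WT and rose by 0.77, and Tfdp2 had 19.2 and 19.6 TPM in KO and 28.1 and 26.9 TPM in WT and fell by 0.48 on the log2 scale. Rbl1, the pocket protein p107, rose by 0.42, as did the MuvB subunit Lin9. Foxm1, a forkhead factor of G2/M genes, had 42.2 and 40.6 TPM in KO and 33.4 and 35.9 TPM in WT, a rise of 0.25 (limma adjusted p 0.0454) that was lost whenever any library was left out, on FPKM, without a filter, under all 3 scalings and with the block (at most 0.166). Calls were also lost for Tfdp2 without WT replicate 1 (adjusted p 0.0571), for Rbl1 without WT replicate 2 or KO replicate 1 (at most 0.0516), for E2f6 without WT replicate 1, WT replicate 2 or KO replicate 2 (at most 0.093) and for Lin9 without any one library (0.0702 to 0.0973). E2f5, Rb1, Rbl2, Lin37, Lin52 and Lin54 did not pass.

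In ATAC-seq a transposase cuts accessible DNA, and the deposited data here are a peak list per library, with 109388 and 111014 peaks in KO and 103021 and 105238 in WT. The start sites of 29 of 30 G1/S genes and of all 24 G2/M genes had a peak within 500 bp in all 4 lists, against 85.3% of the tested genes with a single location. The exception was Lig1, with no peak within 500 bp in any list. The authors' −log10 q of the strongest promoter peak had medians of 255 and 263 in KO and 190.0 and 209 in WT for G1/S genes, 233 and 250 in KO and 176 and 191 in WT for G2/M genes, and 151 and 155 in KO and 129 and 132 in WT for all tested genes. Both KO lists stood above both WT lists at 25 of 29 G1/S and 19 of 24 G2/M promoters, where 66.5% of all promoters with a peak in each list did. This value grows with sequencing depth, which is unknown for these lists, and no test was made.

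The fold enrichment over local background, the authors' peak height, did not show that order. Its medians were 16.3 and 15.9 in KO and 17.0 and 16.6 in WT for G1/S genes, 19.3 and 19.1 in KO and 19.4 and 18.9 in WT for G2/M genes, and 14.1 and 14.2 in KO and 14.0 in both WT lists for all tested genes. Both KO lists were above both WT lists at 2 G1/S and 6 G2/M promoters (27.8% of all promoters) and below them at 8 and 3 (20% of all promoters). Kif11 was the only one of the 54 with a lower −log10 q in both KO lists (264 and 278 in KO, 364 and 321 in WT), as at 5.52% of all promoters. E2f2, whose transcript fell, had −log10 q of 35.8 and 33.9 in KO and 16.7 and 24.8 in WT at its promoter, with fold enrichments of 7.66 and 7.29 in KO and 5.14 and 6.22 in WT.

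**Figure D5:**
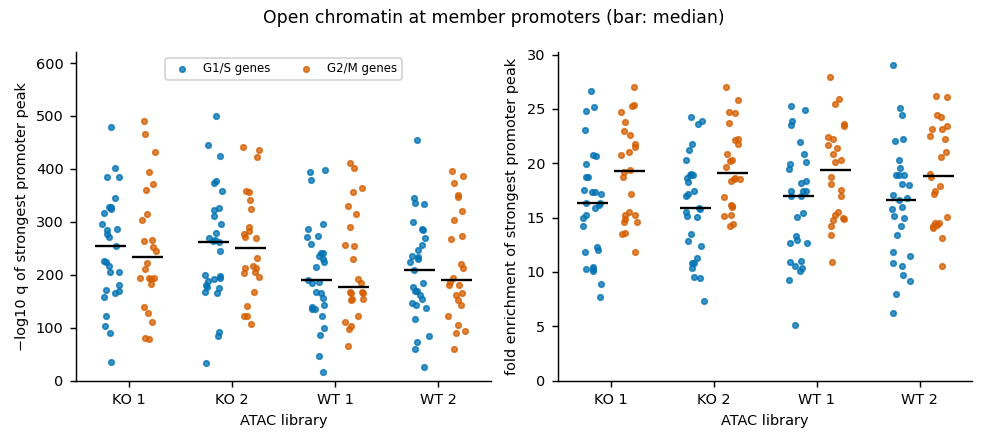
Strongest ATAC peak within 500 bp of the start of each gene, in each ATAC library, as the authors' −log10 q (left) and fold enrichment (right); points are genes, bars are medians of 29 G1/S and 24 G2/M genes. Medians of −log10 q are higher in the KO lists than in the WT lists, and those of fold enrichment are nearly level.

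Regions found in one genotype only lay at a minority of the genes. Within 10 kb of the gene, a region in both KO lists and neither WT list lay at 7 G1/S and 6 G2/M genes, against 29.4% of tested genes, and a region in both WT lists and neither KO list at 4 and 4, against 21.6%. One KO-only region lay at -4678 bp from the start of Ccne1, where minus means upstream, at chr7:38112016-38112320 on mm10, with −log10 q of 22.9 and 23.8. In E2f2 a KO-only region lay 7882 bp after the start, inside the gene model (chr4:136180076-136180237, −log10 q 12.2 and 14.1). Downstream of Pole a WT-only region at chr5:110347048-110347331 had −log10 q of 32.4 and 37.1. These 3 were chosen after their values were seen, and absence from a list is absence of a called peak.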

How the data were processed

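The submitters' processing notes name HISAT2 and StringTie for RNA and Bowtie2 and MACS2 for ATAC, all on mm10 and without versions. The authors' TPM column adds up to 1000000 per library, per the values. The deposited FPKM column, the authors' value before that scaling, was an alternative. The deposited coverage signal served only for its ratio to FPKM, whose commonest value follows depth (2.638 and 2.63 in KO, 2.412 and 2.122 in WT). Whether strand was used in counting is not given. In the deposited peak lists, 1 per library, the authors give a fold enrichment (a ratio) and −log10 p and q per peak.

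RNA was tested on log2(TPM + 1) with limma 3.58.1 (lmFit, eBayes with trend) in R 4.3.3, genotype as the only term, over genes with mean TPM of at least 1, after a check of the code on simulated data. Entries of a gene ID were summed. Genes and lists were chosen with earlier results of these data known. Named are the highest and lowest gene of each of 13 roles, the gene against its phase's majority, the 3 largest rises of the other lists and all regulators called; further genes were named after their values were seen. Promoters shown are the first 4 per phase by change with the phase's motif (E2F for G1/S, CHR for G2/M), leaving out windows inside the gene's own model in the RNA tables (Cdc6) or overlapping another gene (Mcm7). Azu1, on the neutrophil list, matched no gene ID. Some genes that these lists or the naming rule include are not reported here.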

Additional observations from a re-analysis of the deposited data

How the results depend on the processing

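No read counts were used, so no counting error per gene is given, ATAC depth is unknown, and 2 libraries per group limit every test. The 29 G1/S genes called higher were 28 or 29 under pseudocount, FPKM, filter, scaling and block alternatives and 24 to 25 with a library left out; the 17 G2/M genes were 12 to 17 and 11 to 13. The promoter peak counts stayed within 1 gene. The 1 G1/S gene called lower, E2f2, was 0 without a filter and 0 to 1 with a library left out. Median log2 changes of G1/S, G2/M and all tested genes were 0.57, 0.34 and 0.0652 on FPKM, 0.51, 0.30 and 0.0303 under quantile normalization, 0.51, 0.28 and -0.00299 under median-ratio scaling, and 0.55, 0.31 and 0.0323 without Rpph1. The G2/M median was 0.38 with a pseudocount of 0.1, and the median of all tested genes was 0.11 at a mean of at least 5 TPM and 0.0037 with no filter, which tests more genes. With a library left out these medians were 0.59 to 0.62, 0.34 to 0.38 and 0.084 to 0.105, and 2005 to 2242 genes were called higher and 1088 to 1450 lower, against 3331 and 1940. The G1/S minus G2/M difference, 0.26 in KO minus WT, was 0.22 to 0.30 there and 0.25 to 0.27 under the other alternatives.

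Among the 54 genes, a change of sign occurred in 6 of the 7 G2/M genes that did not pass and in none of the called genes. Under quantile normalization Ccnb2 was at -0.00298, Cenpe at -0.0555, Kif11 at -0.0730, Nusap1 at -0.02805 and Top2a at -0.078. Under median-ratio scaling Cenpe was at -0.0681, Kif11 at -0.0443, Nusap1 at -0.0430 and Top2a at -0.0684. Without Rpph1 Cenpe was at -0.0316, Kif11 at -0.00754, Nusap1 at -0.00643 and Top2a at -0.0314. With a library left out, Ccnb2 ranged from -0.0113 to 0.218, Cenpe from -0.004955 to 0.0718, Kif23 from -0.0848 to 0.0122 and Nusap1 from -0.0813 to 0.198. The cause of these shifts was not tested.

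Replicate numbers were not shown to pair the libraries: replicate differences in KO and WT correlated at 0.0043 across genes. With the replicate block, 3072 genes were called higher and 1798 lower, with 29 and 1 of the G1/S genes and 15 and 0 of the G2/M genes.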
